A study of Mus musculus with 2 samples.

Results

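The genes described here were 42 proliferation genes, 17 that act in the G1/S transition and DNA replication and 25 that act in G2 and mitosis. They were the rows of the count table whose gene name matched a fixed list of S phase and mitotic genes, and all 42 of them were found among 24421 rows. The table held 1 library of primary chondrocytes, isolated by collagenase digestion from the rib cartilage of newborn mice, and 1 library of primary dermal fibroblasts, isolated by collagenase digestion from the dorsal skin of newborn mice. The labels name no treatment, genotype, strain or number of animals for either library. Primary chondrocytes were cells within 2 passages, the passage of the dermal fibroblasts is not stated, and time in culture and cell density are not stated for either, so that cell type and culture state cannot be told apart.

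A cell commits to division when cyclin-dependent kinases inactivate the retinoblastoma protein and free E2F transcription factors, which activate genes for origin licensing, the replicative helicase and nucleotide supply. Later in the cycle a second wave of genes, driven by B-MYB, FOXM1 and the MuvB complex, supplies the kinases, kinetochore proteins and spindle motors of mitosis. Transcripts of both waves are scarce in resting cells, and in cartilage the proliferating zone of the growth plate is the main place where they are found. In RNA from a whole culture, fewer dividing cells and less of each transcript per dividing cell cannot be told apart.

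The 2 libraries held 18788599 and 17563724 counted reads. Counts were scaled with edgeR TMM factors, a level is given as CPM, the count relative to the scaled library size, or as CPM per kb of exon, and a fold is chondrocytes over dermal fibroblasts with a 95% Clopper-Pearson interval that covers counting error only. With 1 library per cell type there was no replicate check, no test and no p-value, and each statement describes these libraries. The defining genes of each cell type went with the labels, with 1 exception. The 8 chondrocyte markers summed to 1836828 counts in chondrocytes and 436 in dermal fibroblasts, with *Col2a1* and *Matn1* at 0 in the latter. Of 8 dermal fibroblast markers, 7 were over 2-fold higher in dermal fibroblasts, among them *Col1a1* and *Col3a1*. The exception, *Lum*, had 3191 and 2881 counts and was 1.14-fold higher in chondrocytes. The dermal fibroblast markers were not absent from the chondrocyte library, where they summed to 116250 counts, against 899970 in dermal fibroblasts.

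Regulatory letters searched in the promoters of replication genes and mitosis genes are shown here, because they describe the genes by a feature that the counts do not use. RefSeq promoter windows of GRCm38.p6 matched 34 of the 42 genes in 37 windows, 16 of them from 14 replication genes and 21 from 20 mitosis genes, and the 250 bases before each start site of that table were searched on both strands. A start site of the table need not be the outer end of the gene. Of the 37 windows, 20 lay wholly outside the annotated gene, 11 partly inside it and 6 wholly inside it, the last in *Cdc6*, *E2f1*, *Mcm7*, *Uhrf1*, *Aurka* and *Mybl2*. *Ccne2*, *Mcm4*, *Gins2*, *Ccna2*, *Aurkb*, *Kif20a*, *Tpx2* and *Foxm1* had no window. The letters searched were TTTGAA, the cell cycle homology region (CHR) bound by MuvB, CCAAT, the box bound by NF-Y, and the E2F core. For the E2F core, a match to any of these forms was taken: TTCCCGC, the form with inner bases GG (TTGGCGC), the form with inner bases CG (TTCGCGC), and the form with inner bases GC (TTGCCGC). An E2F core that begins TTGG can share letters with an NF-Y box read on the other strand. For each class, the windows of the largest and the smallest fold that overlapped no annotated gene are given 5′ to 3′ on the strand of the gene, with matches in capitals. *Rrm2* encodes the regulated subunit of ribonucleotide reductase, *Ccne1* encodes cyclin E1, *Cdc20* encodes the activator of the anaphase-promoting complex, and *Bub1* encodes a spindle checkpoint kinase. The windows lie at chr12:24708004-24708253 on the plus strand for *Rrm2*, and on the minus strand at chr7:38107491-38107740 for *Ccne1*, chr4:118437344-118437593 for *Cdc20* and chr2:127831860-127832109 for *Bub1*.
Rrm2: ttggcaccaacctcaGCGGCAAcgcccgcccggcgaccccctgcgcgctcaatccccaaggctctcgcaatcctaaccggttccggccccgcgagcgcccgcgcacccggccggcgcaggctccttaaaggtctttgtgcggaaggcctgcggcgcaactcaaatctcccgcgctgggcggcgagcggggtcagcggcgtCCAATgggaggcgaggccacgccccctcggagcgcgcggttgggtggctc
Ccne1: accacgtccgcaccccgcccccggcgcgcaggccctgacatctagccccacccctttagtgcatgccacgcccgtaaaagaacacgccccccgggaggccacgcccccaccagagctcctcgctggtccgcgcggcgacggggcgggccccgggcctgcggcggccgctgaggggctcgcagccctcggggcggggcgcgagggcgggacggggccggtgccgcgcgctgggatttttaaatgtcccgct
Cdc20: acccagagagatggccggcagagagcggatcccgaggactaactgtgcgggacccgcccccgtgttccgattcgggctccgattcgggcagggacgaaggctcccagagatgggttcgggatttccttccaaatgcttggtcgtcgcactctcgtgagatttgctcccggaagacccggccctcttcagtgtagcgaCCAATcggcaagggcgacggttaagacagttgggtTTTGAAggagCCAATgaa
Bub1: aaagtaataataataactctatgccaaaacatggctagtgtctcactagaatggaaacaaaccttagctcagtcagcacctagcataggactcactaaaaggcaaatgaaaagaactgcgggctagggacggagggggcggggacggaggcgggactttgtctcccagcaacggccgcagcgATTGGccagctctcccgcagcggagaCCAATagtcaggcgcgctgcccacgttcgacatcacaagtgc

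In the *Cdc20* window the CHR began 18 bases before the gene start, and NF-Y boxes began 53 and 8 bases before it. *Bub1* held NF-Y boxes beginning 68 and 42 bases before the start and no CHR. *Rrm2* held an NF-Y box 50 bases and an E2F core 235 bases before the start. None of the searched letters stood in the *Ccne1* window, which says only that these letters are not in these 250 bases. The CHR stood in 8 of 21 mitosis windows (38.1%), in 1 of 16 replication windows (6.25%, that of *Mcm2*), in 10.3% of 10997 windows of genes with at least 100 counts in a library and in 16% of all 32851 windows. The mitosis genes with a CHR were *Ccnb2*, *Cdc20*, *Cdk1*, *Kif11*, *Mki67*, *Prc1* (in 1 of its windows), *Top2a* and *Ube2c*. The E2F core showed the other order, with 9 of 16 replication windows (56.2%) and 3 of 21 mitosis windows (14.3%), against 14.0% and 7.89% of the same comparison windows. *Mcm7* and *Uhrf1* each gave more than 1 of the replication windows, all with an E2F core and an NF-Y box, so these windows are not all separate genes. In 1 of those 3 mitosis windows the match shared letters with an NF-Y box. NF-Y boxes were frequent in both classes, with 11 of 16 replication and 18 of 21 mitosis windows (68.8% and 85.7%), against 34.8% and 33.8% of the comparison windows. Without the 6 windows wholly inside a gene, an alternative chosen after seeing the data, the CHR stood in 8 of 19 mitosis and 1 of 12 replication windows and the E2F core in 3 of 19 and 6 of 12. These shares are counts of letters and were not tested.

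**Figure D1:**
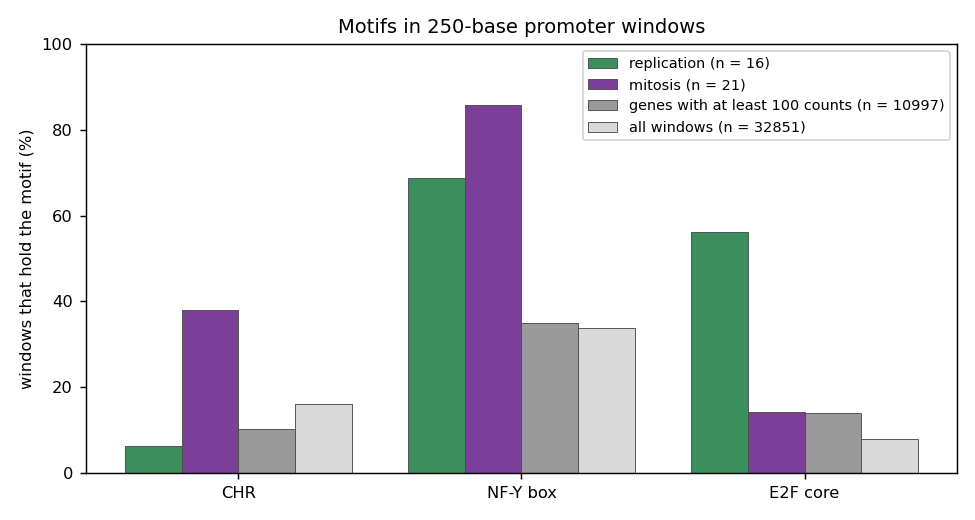
Bars give the percentage of promoter windows (250 bases before a start site of the promoter table) that held each motif on either strand, for replication genes, mitosis genes, genes with at least 100 counts and all windows. The CHR stood in 38.1% of mitosis and 6.25% of replication windows, and the E2F core in 14.3% and 56.2%.

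The proliferation genes were higher in chondrocytes with 1 exception, and their folds ran from 0.871 for *E2f1* to 2.88 for *Cdc20*. Of the 42 genes, 41 had a fold over 1, against 50.2% of the 15616 genes above 3 counts in a library and 50.3% of the 11162 genes that reached 100 counts. For the same 41 the interval lay wholly above 1, against 32.9% and 38.7%, and for *E2f1* it lay wholly below 1, against 33.9% and 38.9%. With scaling by total counts, the interval lay wholly above 1 for 40 genes. The median log2 fold was 0.85 (1.8-fold), beside 0.00 over all those genes. Together the 42 genes made up 0.346% of the counts in chondrocytes and 0.206% in dermal fibroblasts, or 3625 and 1969 CPM. Each gene was well covered, with 149 to 5006 counts in chondrocytes and 103 to 2465 in dermal fibroblasts.

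The 2-fold line, the threshold of the study, ran through the upper part of these values. Above it lay 10 of 42 genes (23.8%), against 12.1% of all genes above 3 counts and 8.79% of those that reached 100. In the other direction, 0 of 42 were over 2-fold higher, against 15.8% and 13.3%. For 7 genes the whole interval lay above 2-fold, against 6.67% and 6.78%. At 1.5-fold the number was 36 of 42, against 20.5% and 16.8%. The count at 2-fold depended on the scaling. It was 20 when *Actb* was used to scale the libraries, beside 13.7% of all genes above 3 counts with that scaling. Scaling by *Actb* moved the log2 fold of every gene by 0.12. The number with a fold over 1 was 41 under each of the 7 scalings.

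**Figure D2:**
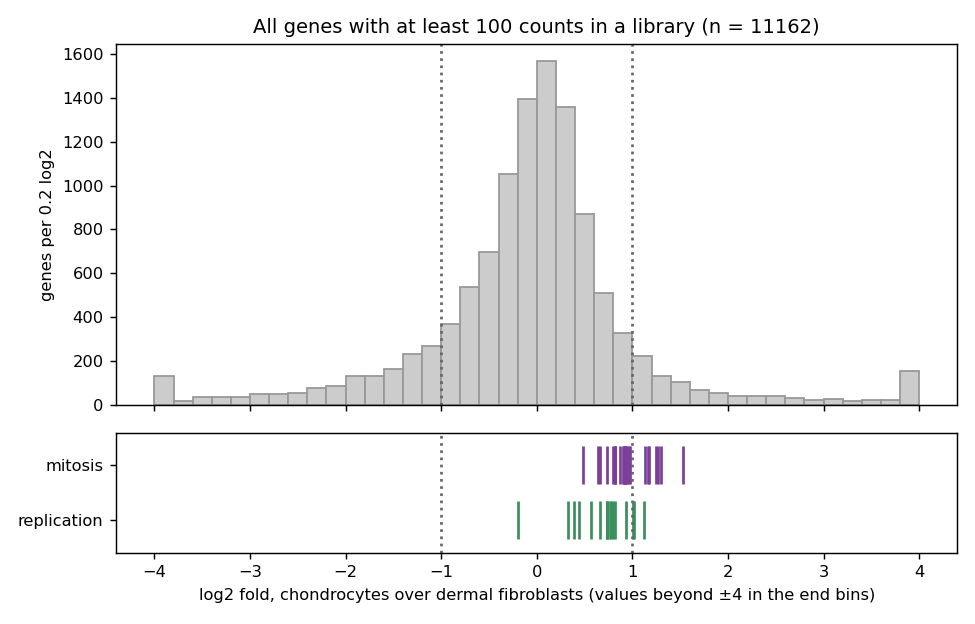
The upper panel is a histogram of log2 folds (x axis) over 11162 genes with at least 100 counts in a library, and the lower panel marks each replication and mitosis gene on the same axis, with dotted lines at 2-fold. Of the marks, 41 of 42 lie to the right of 0, and 10 lie to the right of the 2-fold line.

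Mitosis genes stood somewhat higher than replication genes. The median log2 fold was 0.92 over the 25 mitosis genes (1.89-fold, from 0.49 to 1.53) and 0.74 over the 17 replication genes (1.67-fold, from -0.20 to 1.12), a difference of 0.18 that no scaling between libraries can change. Of the mitosis genes, 7 of 25 were over 2-fold higher, and of the replication genes 3 of 17. The share over 2-fold higher in chondrocytes was 12.1% of all genes above 3 counts and 8.79% of those that reached 100. The difference of the medians was within the counting error of the genes that formed them, *Ube2c* and *Cdt1*, whose intervals allowed -0.12 to 0.49. Summed over all genes of each class, the counting error was smaller. Mitosis genes took 60.1% of the member counts within the chondrocyte library (39053 of them against 25930 for replication, interval 59.7% to 60.5%) and 56.6% within the dermal fibroblast library (20517 against 15724, interval 56.1% to 57.1%), and the intervals did not overlap. The ratio of mitosis to replication counts was therefore 1.15 times that of dermal fibroblasts (interval 1.12 to 1.18). Without *Top2a* and *Pcna*, the genes of each class with the most counts over both libraries, it was 1.10 times (interval 1.07 to 1.13), so that the size of the difference rested in part on these genes. When counts were first divided by exon length, the shares were 55.4% and 50.7%, in the same order.

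**Figure D3:**
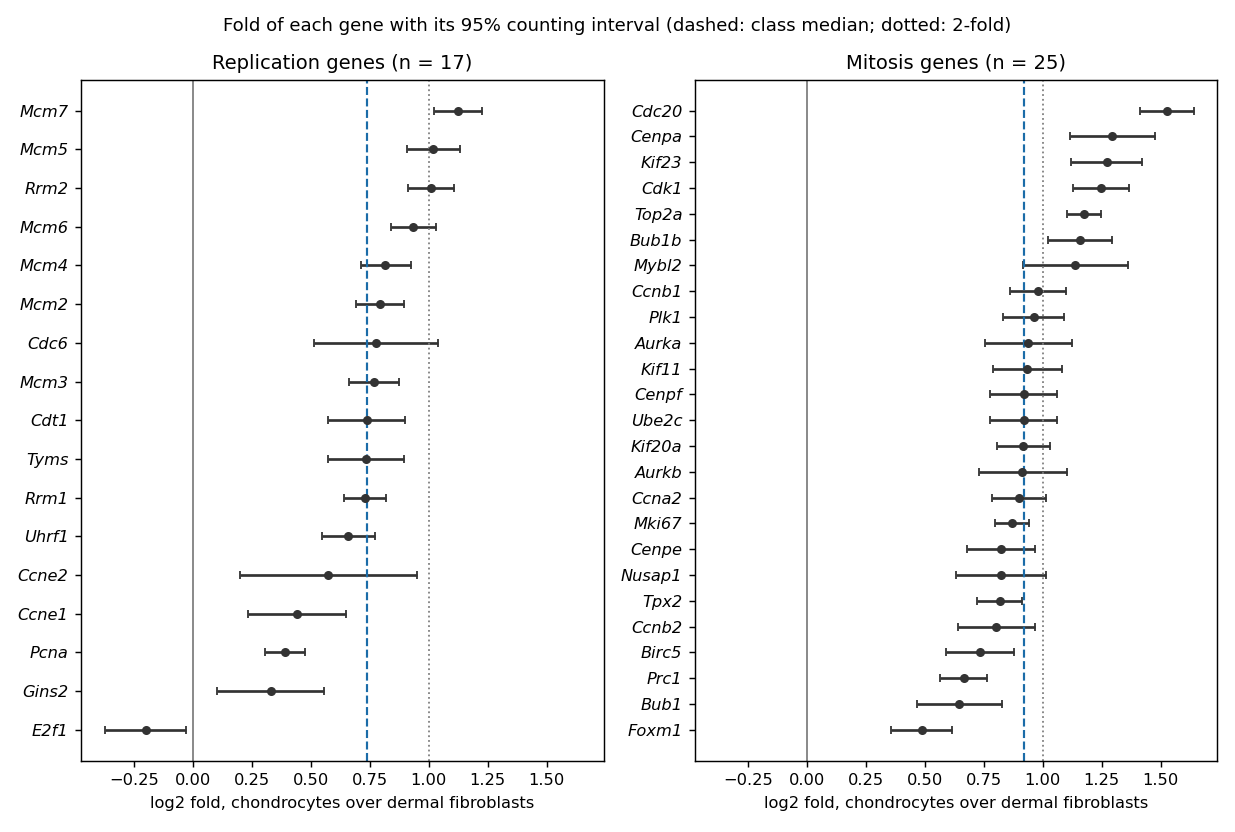
Points give the log2 fold (x axis) of each replication gene (left) and mitosis gene (right), bars give the 95% counting interval, the dashed line is the class median (0.74 and 0.92) and the dotted line is 2-fold. All 25 mitosis genes and 16 of 17 replication genes lie to the right of 0, with *E2f1* on the left.

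Among the genes of the G1/S transition, *E2f1*, which encodes the transcription factor that starts the replication program (chromosome 2, 154559400 to 154569892 in GRCm38.p6), had 512 counts in the chondrocyte library and 604 in that of dermal fibroblasts. It was the only member that was lower in chondrocytes, with a fold of 0.871 (interval 0.772 to 0.981). The interval lay below 1 under 4 of the 7 scalings and reached above 1 with the upper quartile, with total counts without the 10 most abundant genes and with *Actb* (0.948, interval 0.841 to 1.07). *Ccne1* had 452 and 342 counts and was 1.36-fold higher (interval 1.18 to 1.57). *Ccne2*, for the other E cyclin, had 149 and 103 counts, the fewest of all members in both libraries, and was 1.49-fold higher (interval 1.15 to 1.93). Its value and its share are uncertain, as 17.4% of its exon bases are shared with *Ints8* on the opposite strand, which had 609 and 738 counts. *E2f1*, *Ccne1* and *Ccne2* thus had the lowest folds of their class together with *Pcna* and *Gins2*, though the interval of *Ccne2* held the class median. Cyclin E2 made up 24.8% of the counts of both E cyclins in chondrocytes and 23.1% in dermal fibroblasts, and these shares did not differ beyond counting error (ratio 1.09, interval 0.813 to 1.48).

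Origin licensing loads the MCM helicase onto DNA and needs the products of *Cdc6* and *Cdt1*. *Cdc6* had 323 and 194 counts and was 1.71-fold higher in chondrocytes (interval 1.43 to 2.05). *Cdt1* had 819 and 505 counts and was 1.67-fold higher (interval 1.49 to 1.86). Their proportion did not differ beyond counting error, with *Cdt1* at 71.7% and 72.2% of their sum (ratio 0.974, interval 0.785 to 1.21).

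All 6 subunits of the MCM helicase were higher in chondrocytes, by unequal amounts. *Mcm7* (chromosome 5, 138164583 to 138172111) had 2461 and 1159 counts and, at 2.18 (interval 2.03 to 2.34), the largest fold of the class. *Mcm5* had 1867 and 946 counts and was 2.03-fold higher (interval 1.87 to 2.19). *Mcm6* (1.91-fold), *Mcm4* (1.76-fold), *Mcm2* (1.73-fold) and *Mcm3* (1.70-fold) followed. As a share of all MCM2 to MCM7 counts, which needs no scaling, *Mcm7* was 19% in chondrocytes (interval 18.3% to 19.7%) and 16.4% in dermal fibroblasts (interval 15.5% to 17.3%). *Mcm3* went the other way, from 16.1% in dermal fibroblasts to 14.6% in chondrocytes. *Mcm6* took 20.0% and 19.7%, which did not differ beyond counting error. *Mcm7* shares 7.25% of its exon bases with *Ap4m1* (266 and 273 counts) and 1.45% with *Cops6* (1771 and 1512 counts), both on the opposite strand. Whether strand was used in counting is not given in the sources used here. *Gins2*, a subunit of the GINS complex of the same helicase, had 361 and 295 counts and a fold of 1.26 (interval 1.07 to 1.47). Its value is uncertain, as 67.3% of its exon bases are shared with *Gse1* on the opposite strand, which had 930 and 693 counts.

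*Pcna*, for the sliding clamp of DNA polymerases, was the most abundant replication gene per length in both libraries, with 59.6 CPM per kb in chondrocytes and 45.5 in dermal fibroblasts. Its 2566 and 2009 counts gave a fold of only 1.31 (interval 1.24 to 1.39), below the class median beyond its counting error. PCNA also serves DNA repair. Next in level per length were the subunits of ribonucleotide reductase, which makes deoxynucleotides. *Rrm2* had 2589 and 1321 counts and was 2.01-fold higher (interval 1.88 to 2.15). *Rrm1*, for the large subunit, had 2728 and 1690 counts and was 1.66-fold higher (interval 1.56 to 1.76). *Rrm2* accordingly made up 48.7% of their sum in chondrocytes (interval 47.3% to 50.0%) and 43.9% in dermal fibroblasts (interval 42.1% to 45.7%), a difference beyond counting error. *Tyms*, for thymidylate synthase, was 1.66-fold higher, and *Uhrf1*, which recruits the maintenance DNA methyltransferase to newly copied DNA, was 1.58-fold higher.

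**Figure D4:**
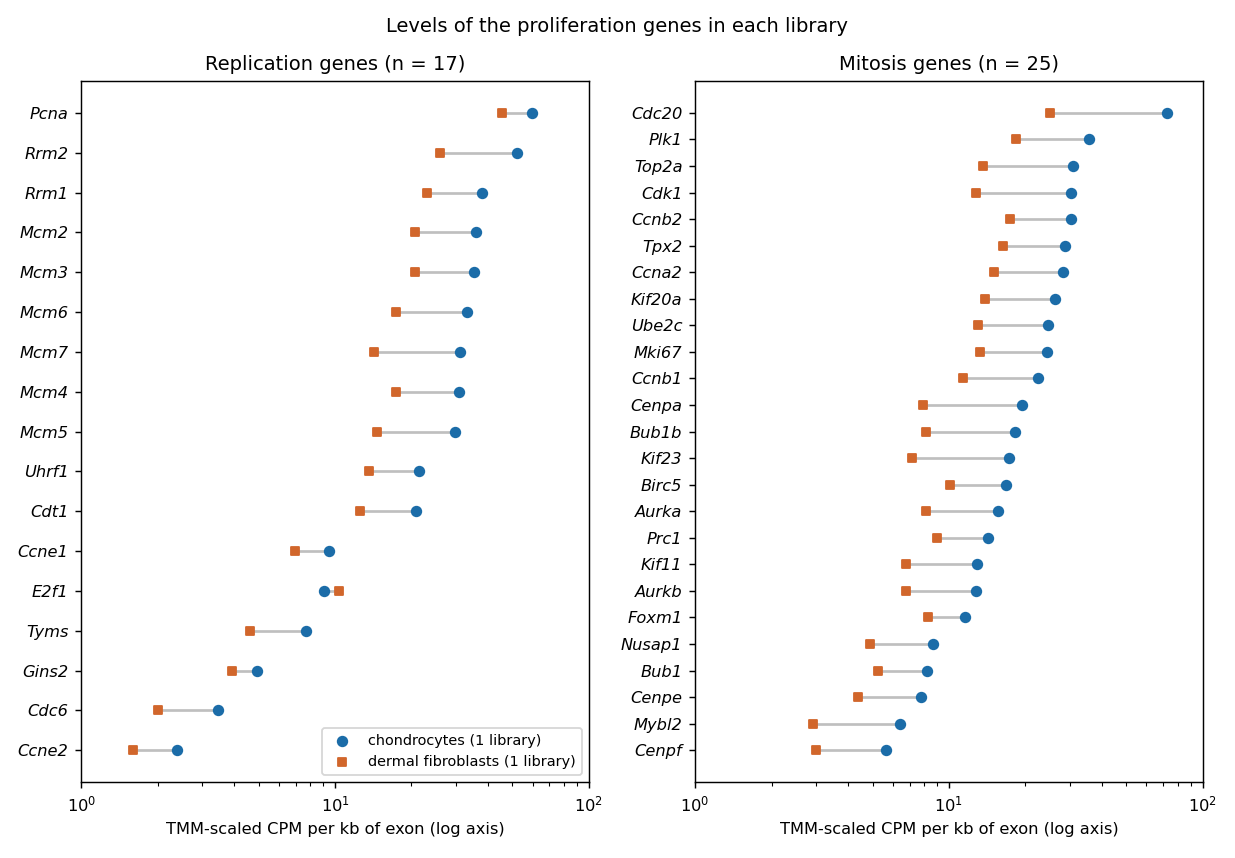
Levels of the 17 replication genes (left) and 25 mitosis genes (right) are plotted as TMM-scaled CPM per kb of exon on a log axis, with circles for chondrocytes and squares for dermal fibroblasts, 1 library each. *Pcna* (59.6 and 45.5) and *Cdc20* (72.0 and 25) head their classes, and *E2f1* is the only gene whose square lies to the right.

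In the mitosis class, *Cdc20* (chromosome 4, 118432901 to 118437343) had the largest fold of all 42 genes. Its counts were 2411 and 860, a 2.88-fold difference (interval 2.66 to 3.12). It was also the most abundant mitosis gene per length, at 72.0 and 25 CPM per kb. *Ube2c*, for the ubiquitin-conjugating enzyme that works with the same complex, had 1145 and 622 counts and was 1.89-fold higher (interval 1.71 to 2.09). This pair, compared after its values were seen, was thus not shifted equally, as *Cdc20* took 67.8% of their sum in chondrocytes (interval 66.2% to 69.3%) and 58.0% in dermal fibroblasts (interval 55.5% to 60.6%). *Ube2c* shares 22.8% of its exon bases with the troponin gene *Tnnc2* on the opposite strand, which had 484 and 439 counts. *Cdc20* shares 2.84% of its exon bases with *Elovl1* on the opposite strand, which had 1181 and 2742 counts.

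The kinase of mitotic entry and its cyclins were all higher in chondrocytes. *Cdk1* had 1877 and 813 counts and was 2.37-fold higher (interval 2.18 to 2.58). *Ccnb1*, for cyclin B1, had 1699 and 886 counts (1.97-fold, interval 1.81 to 2.14), and *Ccnb2* had 835 and 492 (1.74-fold, interval 1.56 to 1.95). The balance of both B cyclins did not differ beyond counting error, with *Ccnb1* at 67.0% of their sum in chondrocytes (interval 65.2% to 68.9%) and 64.3% in dermal fibroblasts (interval 61.7% to 66.8%). *Ccna2*, for cyclin A2 of S phase and G2, was 1.86-fold higher, and 14.6% of its exon bases are shared with *Exosc9* on the opposite strand, which had 398 and 354 counts. The kinases *Plk1* and *Aurka*, which act in centrosome maturation and spindle assembly, were 1.95-fold and 1.92-fold higher, and *Plk1* was second in level per length at 35.7 and 18.3 CPM per kb.

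Genes of chromosome structure, the centromere, the kinetochore and the chromosomal passenger complex ranged from 1.66-fold to 2.45-fold. *Top2a*, for the topoisomerase that untangles sister chromatids, had the most counts of any member in chondrocytes, 5006, against 2276 in dermal fibroblasts, and was 2.26-fold higher (interval 2.15 to 2.37). *Cenpa*, for the centromeric histone H3 variant, had 872 and 365 counts and was 2.45-fold higher (interval 2.17 to 2.78). *Mki67*, the source of the proliferation antigen Ki-67, had 4387 and 2465 counts and a lower fold of 1.83 (interval 1.74 to 1.92). The kinetochore motor *Cenpe* and the kinetochore protein *Cenpf* were 1.77-fold and 1.89-fold higher. The chromosomal passenger genes *Aurkb* (677 and 369 counts, 1.88-fold) and *Birc5* (1024 and 633 counts, 1.66-fold) did not differ in proportion beyond counting error, with a ratio of 1.13 (interval 0.963 to 1.34).

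The related spindle checkpoint genes differed from each other. *Bub1b*, for BubR1, had 1395 and 642 counts and was 2.23-fold higher (interval 2.03 to 2.45). *Bub1* (chromosome 2, 127800197 to 127831859) had 641 and 421 counts and was 1.56-fold higher (interval 1.38 to 1.77). *Bub1b* made up 68.5% of the sum in chondrocytes (interval 66.4% to 70.5%) and 60.4% in dermal fibroblasts (interval 57.4% to 63.4%), a ratio of ratios of 1.43 (interval 1.22 to 1.67).

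Among spindle and midzone genes, *Kif23*, for the kinesin of the central spindle, had 1212 and 516 counts and was 2.41-fold higher (interval 2.17 to 2.68). *Prc1*, for the microtubule bundler at the same place, had 2099 and 1359 counts and was 1.59-fold higher (interval 1.48 to 1.70). The spindle motor *Kif11* (1.91-fold), the midzone kinesin *Kif20a* (1.89-fold), and the spindle assembly genes *Nusap1* (1.77-fold) and *Tpx2* (1.76-fold) lay between them. *Kif20a* shares 32.3% of its exon bases with *Cdc23* on the opposite strand, which had 1269 and 1211 counts.

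The regulators of the mitotic wave were split. *Mybl2*, for B-MYB, had 533 and 249 counts and was 2.2-fold higher (interval 1.89 to 2.57), while *Foxm1* had 1139 and 835 counts and the smallest fold of the class, 1.40 (interval 1.28 to 1.53). Set beside *E2f1*, a comparison chosen after the values were seen, *E2f1* was 49.0% of the sum of *E2f1* and *Mybl2* in chondrocytes (interval 45.9% to 52.1%) and 70.8% in dermal fibroblasts (interval 67.6% to 73.8%). The ratio of *E2f1* to *Mybl2* in chondrocytes was 0.396 times that in dermal fibroblasts (interval 0.326 to 0.481), and to *Foxm1* 0.622 times (interval 0.535 to 0.722). In both classes the spread went beyond counting error, since the interval excluded the class median for 8 of 17 replication genes, of which 4 lay above and 4 below, and for 11 of 25 mitosis genes, of which 6 lay above and 5 below.

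**Figure D5:**
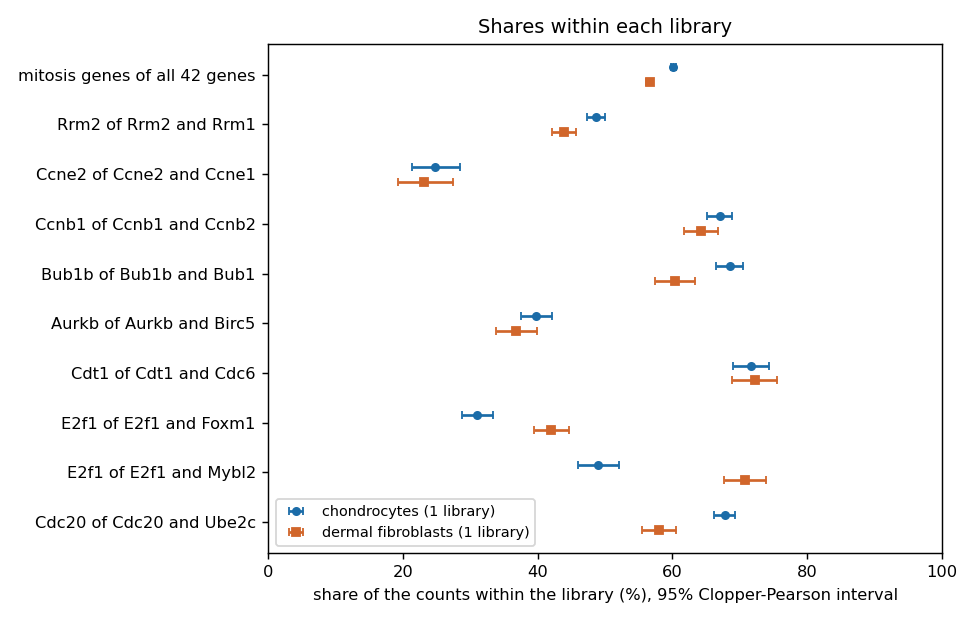
Points give the share of counts (x axis, %) that the mitosis genes took of all 42 genes, and that the first gene of each pair took of the pair, in the chondrocyte library (circles) and the dermal fibroblast library (squares), with 95% Clopper-Pearson intervals. The intervals of *E2f1* and *Mybl2* lie farthest apart (49.0% and 70.8%), and those of *Cdt1* and *Cdc6* (71.7% and 72.2%) overlap.

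Further genes from lists of cell cycle phases were mostly higher in chondrocytes too, 30 of 31 and 35 of 37, beside 50.2% of all genes. Of 31 further G1/S genes, 8 (25.8%) were over 2-fold higher in chondrocytes and 0 in dermal fibroblasts, beside 12.1% and 15.8% of all genes, with a median log2 fold of 0.61. Those with the largest folds were *Ung*, for uracil-DNA glycosylase (348 and 116 counts, 3.08-fold), *Cdca7*, a MYC-responsive gene (474 and 210, 2.32-fold), and *Tipin*, for a replication fork protein (706 and 325, 2.23-fold). Of 37 further G2/M genes, 10 (27.0%) passed 2-fold in chondrocytes and 0 in dermal fibroblasts, beside the same shares, with a median of 0.71. *Hmgb2*, for a chromatin protein (2786 and 775 counts), led at 3.69-fold, followed by *Cdca3* at 2.19-fold and *Ckap2* at 2.14-fold. Median values of both lists lay above the 0.00 of all genes and below those of the 42 members.

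Cyclins and kinases of G1, listed with *Cdc25a*, *Myc* and *Mycn*, differed less between the libraries. Of 9 genes, *Mycn* was over 2-fold higher in chondrocytes, with only 25 counts against 5 (5.14-fold, interval 1.93 to 17.2), and the median log2 fold was 0.42. That is 11.1% of the list, beside 12.1% of all genes. *Ccnd1* (1.11-fold), *Ccnd2* (1.14-fold), *Cdk2* (1.16-fold) and *Cdk4* (0.879-fold) lay closer to 1. *Cdc25a* and *Cdk6* were 1.34-fold and 1.66-fold higher, and *Ccnd3* and *Myc* were 1.83-fold and 1.84-fold higher. Among the CDK inhibitors, 3 genes lay beyond 2-fold. *Cdkn1c*, for p57, which is imprinted and acts in growth plate chondrocytes, had 3182 and 1339 counts and was 2.44-fold higher in chondrocytes (interval 2.29 to 2.60). *Cdkn2b*, for p15, had 127 and 291 counts and was higher in dermal fibroblasts by 2.23-fold (interval 1.81 to 2.77). *Cdkn2a*, the locus of p16 and p19ARF, had 16 and 62 counts and was higher there by 3.77-fold (interval 2.15 to 7.0). Of the 7 genes of this list, 1 was thus over 2-fold higher in chondrocytes and 2 in dermal fibroblasts (14.3% and 28.6%), beside 12.1% and 15.8% of all genes. Of 16 pocket protein, E2F and MuvB genes, only the activator *E2f2* passed 2-fold (330 and 116 counts, 2.92-fold, interval 2.36 to 3.64), 6.25% of the list beside 12.1% of all genes. The interval lay wholly above 1 for 7 of the 16, and wholly below 1 for 3, *Rb1*, *Rbl2* and *Lin37*, beside 32.9% and 33.9% of all genes. Of 12 housekeeping genes, *Pgk1* (2.38-fold) and *B2m* (0.175-fold) lay beyond 2-fold, and the median fold was 0.997.

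Markers of other cell types also differed between the libraries, and their part in the values of the proliferation genes was not tested. Of 6 skeletal muscle progenitor markers, 5 were over 2-fold higher in chondrocytes, with 547 CPM in sum against 211. *Pax7* had 120 and 4 counts, *Myf5* 36 and 1, and *Myod1* 2328 and 496, and *Msc* was at or under 3 counts in both. Muscle fibre markers summed to 1717 and 1341 CPM, and 2 of 8 were over 2-fold higher in chondrocytes. Keratinocyte markers were at 15.9 CPM in chondrocytes and 264 in dermal fibroblasts, with 5 of 8 over 2-fold higher in the latter and *Krt15* at 3 counts or fewer in both. Endothelial markers (14.6 and 49.3 CPM, 5 of 6 over 2-fold higher in dermal fibroblasts) and macrophage markers (110 and 172 CPM, 1 of 7) also had higher sums there. Erythroid markers were at or under 3 counts in both libraries for 5 of 6 genes, with the globin genes at 0, and *Alas2* had 9 and 3 counts.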

How the data were processed

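RNA-Seq was done on 1 library each of primary chondrocytes and primary dermal fibroblasts. Libraries were made with a stranded mRNA kit and read from 1 end. The authors aligned the reads to mm10 with TopHat2 2.0.13, Bowtie2 2.2.3 and SAMtools 0.1.19 after base-calling with CASAVA 1.8.2. The deposited values are raw counts, 1 whole number for each gene name. The counting program, annotation and strand setting are not given in the sources used here, nor is the test behind the study's false discovery rate. The totals were 18788599 and 17563724 counts in 24421 rows, and 6703 rows held no read in either library.

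Counts were scaled with TMM factors (edgeR 4.0.16, R 4.3.3). For folds, any lower count was raised to a floor of 3, and shares of all genes are over the 15616 genes with more than 3 counts in a library. Intervals are 95% Clopper-Pearson intervals, or exact conditional intervals for ratios of ratios (log normal ones for the class sums and MCM shares), computed with scipy 1.17.1 and numpy 2.4.6 (pandas 2.3.3 and matplotlib 3.10.9 for tables and figures, Python 3.11.15). The sources name no molecular identifiers, so reads may repeat a molecule, and intervals cover counting error only. The calculations were run on simulated data with known folds. Those counts held counting error only, with few changed genes, balanced in both directions and without extreme folds. The run therefore checked the code and could not show how well the scaling does on these libraries. Exon lengths and shared exon bases came from GENCODE vM1 (NCBIM37), and all 42 genes had a length. That build is not the mm10 of the alignment, so shared bases may differ from those of the annotation used in counting. A length merges the exons of all annotated transcripts of a gene, so levels, ranks and shares per exon length depend on the annotation. Gene positions and promoter windows are RefSeq, GRCm38.p6, the same reference build as mm10.

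The genes, their classes and the lists were chosen with earlier results of these data known. Values in full were given for the 3 largest and smallest folds and the 3 highest levels of each class and for genes of a shared complex or step; from other lists, genes past 2-fold or, in lists over 16 genes, the 3 largest folds. Alternatives were scaling by total counts, DESeq2 1.42.0 size factors, the upper quartile, total counts without the 10 most abundant genes, *Actb* or a housekeeping list, a pseudocount of 1, a floor of 1 or 10, a filter at 10 counts, other fold thresholds and other class assignments.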

Additional observations from a re-analysis of the deposited data

How the results depend on the processing

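No paired analysis was possible because there was a single library of chondrocytes and a single one of dermal fibroblasts, and none could be left out. Of the 42 genes, 10 passed 2-fold in chondrocytes, beside 12.1% of all genes. The number was 7 to 12 with the scalings other than *Actb*, beside 10.1% to 12.6% of all genes. With *Actb* it was 20, beside 13.7%. It was 36 at 1.5-fold, beside 20.5%, and 7 where the whole interval had to lie above 2-fold, beside 6.67%. At 4-fold it was 0, and the share of all genes at 4-fold is not given here. Total counts moved the log2 folds of all genes by -0.14 and *Actb* by 0.12. The class medians stayed within the counting interval of their middle gene under each scaling, at 0.60 to 0.86 for replication and 0.78 to 1.04 for mitosis. The difference of the medians was 0.15 to 0.27 under the other class assignments, with means in place of medians, and, in alternatives chosen after seeing the data, without *E2f1* and without genes sharing over 10% of exon bases with another gene. The share of mitosis genes in chondrocytes was 58.6% without *Ccna2* and *Mybl2*, 59.3% without *Top2a* and *Pcna*, and 55.4% per exon length. In dermal fibroblasts it was 55.1%, 57.1% and 50.7% in the same cases, and the ratio of both classes between the libraries, 1.15, was 1.10 in the second of them, a value added after seeing the data. Of 378 values of single genes under the scalings, floors and pseudocount, 338 stayed within the counting interval, 40 left it with total counts or *Actb*, and 0 changed direction. The floors of 1 and 10 lie below every count of these genes and could not move a value. Each scaling moved all genes by the same amount, so the 338 are not separate checks. Depth limited *Ccne2*, *Cdc6* and *Gins2* most.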
